A study of Schmidtea mediterranea with 36 samples.

Results

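A set of 150 transcripts was taken as those with the clearest peak at 6 h post-amputation (HPA) in the tail fragments of *control(RNAi)* planarians, and its behaviour was then followed in *alx-3(RNAi)* worms. Members were chosen from 53415 transcript IDs that start with SmedASXL_ and stand in the tables of all 5 tail time points, out of 71232 transcripts in any table, and the *alx-3* transcript itself (SmedASXL_006490) was left out. Levels across time were read as CPM, the share of a transcript in the summed counts of its library, on a log2(CPM + 0.1) scale. A transcript passed when its mean normalized count at 6 HPA in controls was 50 or more (17877 transcripts, called expressed below) and its 3 control values at 6 HPA all lay above the 12 control values of the other tail times. This left 635 transcripts, which were ranked by their lead, the 6 HPA mean minus the mean of the next highest tail time, and the top 150 were kept. The control tail libraries chose the members, so the control peak is a description and not a finding.

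RNA was measured in 36 libraries of asexual *Schmidtea mediterranea* (strain CIW4). *alx-3(RNAi)* worms were fed dsRNA against *alx-3*, a homeobox transcription factor gene, and *control(RNAi)* worms were fed *GFP* dsRNA, with 9 feeds in each group. Tail fragments left by a cut behind the pharynx were collected at 5 times, 0.5 HPA, 6 HPA, 24 HPA, 48 HPA and 72 HPA, and intact worms of each group were collected as well, with 3 biological replicates per group and time. The dsRNA was given to whole worms, so knockdown was not limited to a cell type, and the sources used here give neither the age of the worms nor the number pooled in a library.

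Planarians rebuild a head, trunk or tail from small fragments, using a population of dividing stem cells called neoblasts. A wound is answered by waves of gene expression. Immediate early genes come within the first hour, and a later wave within several hours includes secreted signals and transcription factors in muscle, epidermis and neoblasts at the cut, some shared by all wounds and some tied to missing tissue. Tail fragments must also set a new anterior pole, with *notum*, an inhibitor of Wnt signaling, acting at cuts that face forward.

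The files pair none of the member IDs with a gene name or a sequence, so members are given by ID, without a role, and no sequence is shown. No member lies inside an ID that carries a gene name. Of the 150 members, 8 have ID numbers that follow each other, and such neighbours may be parts or copies of related sequences between which reads could be split.

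The libraries held 50.9 to 70.9 M normalized counts each (median 58.5 M). Ribosomal RNA made up 11.5% to 14.8% of them and averaged more in *alx-3(RNAi)* than in *control(RNAi)* libraries at each of the 6 times. The *alx-3* transcript checked the labels. It had 4.83, 5.99 and 4.71 CPM in *alx-3(RNAi)* tails at 6 HPA, against 13.4, 15.3 and 14.9 CPM in *control(RNAi)* tails, so that the groups stood apart. Its log2 fold change was −1.35 (SE 0.115, adjusted p = 7.11e-05, limma on log2(normalized count + 1)), and it was also lower at the other 4 tail times and in intact worms. In *control(RNAi)* tails its own level at 6 HPA did not exceed that at 72 HPA, with means of 14.5 ± 1.00 and 18.8 ± 0.645 CPM (SD, n = 3 each).

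The control peak was modest in most members. The lead in *control(RNAi)* tails ranged from 0.39 to 2.73 with a median of 0.56, which is a fold of 1.31 to 6.63 with a median of 1.47, whereas the median expressed transcript had a lead of −0.17. The next highest time was 24 HPA for 64 members, 0.5 HPA for 57, 72 HPA for 22 and 48 HPA for 7. Levels at 6 HPA in controls spanned 0.938 to 2175 CPM with a median of 6.13 CPM. Of the members, 84 lay under 10 CPM and 17 over 100 CPM, and the 10 most abundant held 72.4% of the summed level of all 150 at that time.

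SmedASXL_009407 had the largest lead. It had 16.8, 22.7 and 14.2 CPM in *alx-3(RNAi)* tails at 6 HPA, against 25.9, 29.1 and 27.4 CPM in *control(RNAi)* tails. At 0.5 HPA it had 3.64, 2.99 and 3.95 CPM in *alx-3(RNAi)* tails, against 3.19, 4.21 and 4.98 CPM in *control(RNAi)* tails. By 24 HPA its means were 1.37 ± 0.220 CPM in *alx-3(RNAi)* and 1.26 ± 0.142 CPM in *control(RNAi)* tails, with 0.938 ± 0.387 and 0.847 ± 0.0577 CPM in intact worms of the same groups. The transcript was thus sharply transient in both groups, with a lead of 2.29 (4.90-fold) in *alx-3(RNAi)* and 2.73 (6.63-fold) in *control(RNAi)* tails. Its 3 *alx-3(RNAi)* values at 6 HPA lay under the 3 controls, but the difference did not pass the test (log2 fold change −0.50, SE 0.14, adjusted p = 0.0801).

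SmedASXL_015062 came second by lead and had a broader rise. At 6 HPA it had 34.7, 47.5 and 33.3 CPM in *alx-3(RNAi)* tails, against 58.9, 66.9 and 60.4 CPM in *control(RNAi)* tails. Its next highest time was 24 HPA, with 17.5, 20.7 and 14.6 CPM in *alx-3(RNAi)* and 22.2, 21.7 and 21.6 CPM in *control(RNAi)* tails, and in intact worms it averaged 3.27 ± 0.349 and 3.98 ± 0.359 CPM. Every amputated group therefore averaged above its intact group, at 72 HPA as well (9.39 ± 0.377 and 11.5 ± 0.625 CPM). At 6 HPA it was called lower in *alx-3(RNAi)* tails (log2 fold change −0.57, SE 0.11, adjusted p = 0.0241).

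The members with the highest levels were SmedASXL_010556 and SmedASXL_002572. SmedASXL_010556 had 2171, 2372 and 1792 CPM at 6 HPA in *alx-3(RNAi)* tails, against 2035, 2224 and 2265 CPM in *control(RNAi)* tails. SmedASXL_002572 had 1800, 2059 and 1500 CPM in *alx-3(RNAi)* tails, against 1741, 1943 and 1897 CPM in *control(RNAi)* tails. The groups overlapped for both transcripts, and in each *alx-3(RNAi)* replicate 2 was the highest and replicate 3 the lowest of the 6 libraries. Their leads were 0.88 and 0.97 in *alx-3(RNAi)* tails and 0.76 and 0.83 in *control(RNAi)* tails. Neither was called at any time.

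The selection has no natural edge. The last members inside it, SmedASXL_015450 and SmedASXL_008766, had control leads of 0.394 and 0.392. The first transcripts outside it, SmedASXL_076757 and SmedASXL_001294, had control leads of 0.391 and 0.39. In *alx-3(RNAi)* tails the leads of these 4 were −0.10, 0.42, −0.04 and 0.50, so that members and non-members at the edge did not separate there.

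The peak was also present in *alx-3(RNAi)* tails, whose libraries had no part in the choice. All 3 *alx-3(RNAi)* values at 6 HPA lay above the 12 other *alx-3(RNAi)* tail values in 91 of the 150 members (60.7%), against 2.51% of all 17877 expressed transcripts (449). The lead was positive in 136 members and not in 14, and in 0 members did the 6 HPA values lie below all other tail values. The median lead was 0.41 in *alx-3(RNAi)* tails (1.33-fold, quartiles 0.23 and 0.63), against 0.56 in *control(RNAi)* tails, with a median of −0.14 over all expressed transcripts in *alx-3(RNAi)* tails. The 6 HPA mean exceeded the 0.5, 24, 48 and 72 HPA means in 143, 143, 149 and 149 members, with median differences of 0.62, 0.49, 0.62 and 0.69 on the log2 scale.

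**Figure D1:**
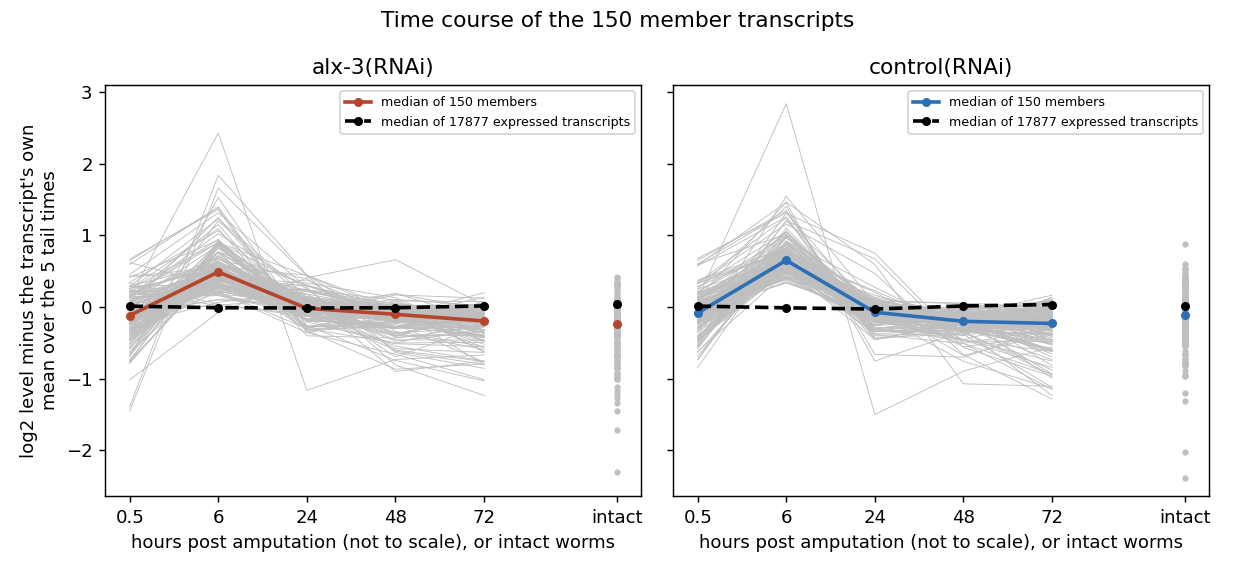
Level of each of the 150 members (grey) at 0.5 to 72 HPA and in intact worms, on a log2(CPM + 0.1) scale relative to the transcript's own mean over the 5 tail times of that group, in *alx-3(RNAi)* (left) and *control(RNAi)* (right). Thick lines are the medians of the members and dashed lines those of the 17877 expressed transcripts. The median of the members stood at 0.49 in *alx-3(RNAi)* and 0.65 in *control(RNAi)* tails at 6 HPA and at or under 0 at every other time, while the dashed lines stayed within 0.05 of 0.

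The lead was smaller in *alx-3(RNAi)* than in *control(RNAi)* tails for 116 members and larger for 34. Members were picked for a large control lead, so a smaller lead in other libraries would also follow from the choice. The same rule was therefore run on the *alx-3(RNAi)* libraries. It passed 459 of 17509 transcripts in *alx-3(RNAi)*, against 635 of 17877 in *control(RNAi)* tails, and 270 passed in both, which is 58.8% of the *alx-3(RNAi)* list and 42.5% of the *control(RNAi)* list. The top 150 of each list shared 79. For the top 150 of the *alx-3(RNAi)* list the median lead was 0.53 in *alx-3(RNAi)* and 0.45 in *control(RNAi)* tails, and for 110 of them all 3 control values at 6 HPA lay above the other control tail values. Each list thus had the smaller lead in the group that did not choose it. Choosing by lead pushes towards this whether or not the peak differs between the groups, so no conclusion is drawn from it. The difference between groups in the height of the peak was not tested, and the control tail libraries it would use are those that chose the members.

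**Figure D2:**
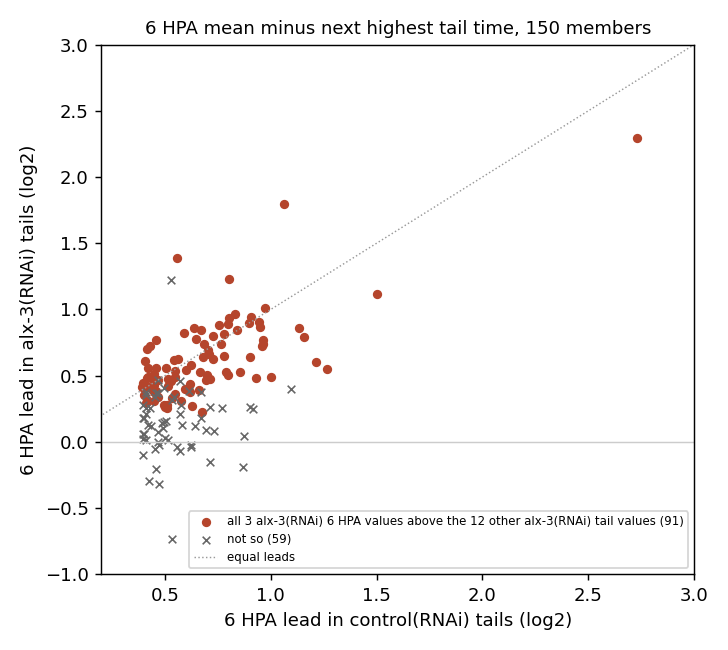
Lead at 6 HPA of the 150 members in *alx-3(RNAi)* tails (vertical axis) against *control(RNAi)* tails (horizontal axis), each the log2 difference between the 6 HPA mean and the mean of the next highest tail time. Filled points are the 91 members whose 3 *alx-3(RNAi)* values at 6 HPA lay above the 12 others, crosses are the 59 others, and the dotted line marks equal leads. Most members (116) lie under the line, and 14 have a lead of 0 or less in *alx-3(RNAi)*.

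The members that kept the separation in *alx-3(RNAi)* tails tended to be those with the larger control lead and the higher count. It held for 40 of the 50 members with the largest control leads, 28 of the next 50 and 23 of the last 50. Of the 120 members with a mean normalized count of 100 or more at 6 HPA in controls, 82 (68.3%) kept it, against 9 of the 30 members (30.0%) with a lower mean. Across the 150 members the 2 leads had a Pearson r of 0.59, a description over transcripts that share the same libraries. The next highest time was the same in both groups for 87 members, and in *alx-3(RNAi)* tails it was 24 HPA for 69, 0.5 HPA for 52, 48 HPA for 20 and 72 HPA for 9.

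The summed level of the members at 6 HPA was 14351, 16291 and 12248 CPM in *alx-3(RNAi)* tails, against 14800, 16085 and 15397 CPM in *control(RNAi)* tails. These sums overlapped between groups and were wider in *alx-3(RNAi)* tails, with replicate 2 the highest and replicate 3 the lowest of the 6, as in the 2 most abundant members. In *alx-3(RNAi)* the sum averaged 6620 ± 269 CPM at 0.5 HPA, 14297 ± 2022 at 6 HPA, 8822 ± 786 at 24 HPA, 8838 ± 793 at 48 HPA and 8101 ± 224 at 72 HPA, with 6670 ± 564 in intact worms (SD, n = 3 each). In *control(RNAi)* it averaged 7435 ± 750 CPM, 15428 ± 643, 9237 ± 264, 8448 ± 58.9 and 8831 ± 112 CPM at the same times, with 7162 ± 289 in intact worms.

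Most members were also higher at 6 HPA than in intact worms, a comparison the rule did not use. In *alx-3(RNAi)* all 3 values at 6 HPA lay above the 3 intact values in 119 of 150 members, against 17% of the expressed transcripts (3033 of 17877). In *control(RNAi)*, where the 6 HPA values are those that chose the members, the count was 135, against 4320 of the 17877 expressed transcripts. The median difference between 6 HPA and intact was 0.75 in *alx-3(RNAi)* and 0.75 in *control(RNAi)* on the log2 scale. Tail fragments and whole worms also differ in the tissues they hold, and in bulk RNA fewer cells of a type and less RNA per cell cannot be told apart.

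The largest lead in *alx-3(RNAi)* after that of SmedASXL_009407 belonged to SmedASXL_006439. It had 9.90, 7.71 and 4.93 CPM at 6 HPA in *alx-3(RNAi)* tails, against 4.11, 2.54 and 3.15 CPM in *control(RNAi)* tails, with leads of 1.80 and 1.06. All 3 *alx-3(RNAi)* values lay above the controls, and at 0.5 HPA the groups overlapped, with means of 1.47 ± 0.152 and 1.49 ± 0.244 CPM. At 24, 48 and 72 HPA its *alx-3(RNAi)* means were 2.03 ± 0.362, 1.98 ± 0.235 and 2.00 ± 0.168 CPM, against 1.48 ± 0.0523, 1.38 ± 0.261 and 1.46 ± 0.135 CPM in *control(RNAi)* tails, and of these only the 72 HPA difference passed the test (log2 fold change 0.66, SE 0.16, adjusted p = 0.0128).

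SmedASXL_004406 had the smallest lead in *alx-3(RNAi)* tails (−0.74), where its level was highest at 48 HPA. At 6 HPA it had 8.20, 2.90 and 4.51 CPM in *alx-3(RNAi)* tails, against 5.41, 3.85 and 5.12 CPM in *control(RNAi)* tails, and the groups overlapped. At 48 HPA it had 9.07, 8.22 and 6.87 CPM in *alx-3(RNAi)* tails, against 1.70, 2.25 and 2.11 CPM in *control(RNAi)* tails. The log2 fold change there was 2.15 (SE 0.18, adjusted p = 4.39e-06), and the transcript was called higher at 24 HPA (1.12, adjusted p = 0.00904) and 72 HPA (1.71, adjusted p = 1.35e-05) too. At 72 HPA it averaged 5.18 ± 1.01 CPM in *alx-3(RNAi)* and 1.81 ± 0.340 CPM in *control(RNAi)* tails, with 2.14 ± 0.450 and 3.02 ± 0.0874 CPM in intact worms. SmedASXL_067076, next by this measure, had 1.54, 1.26 and 1.61 CPM at 6 HPA in *alx-3(RNAi)* tails, against 2.69, 2.31 and 2.76 CPM in *control(RNAi)* tails, with leads of −0.32 and 0.47, and was not called at 6 HPA (adjusted p = 0.0572).

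**Figure D3:**
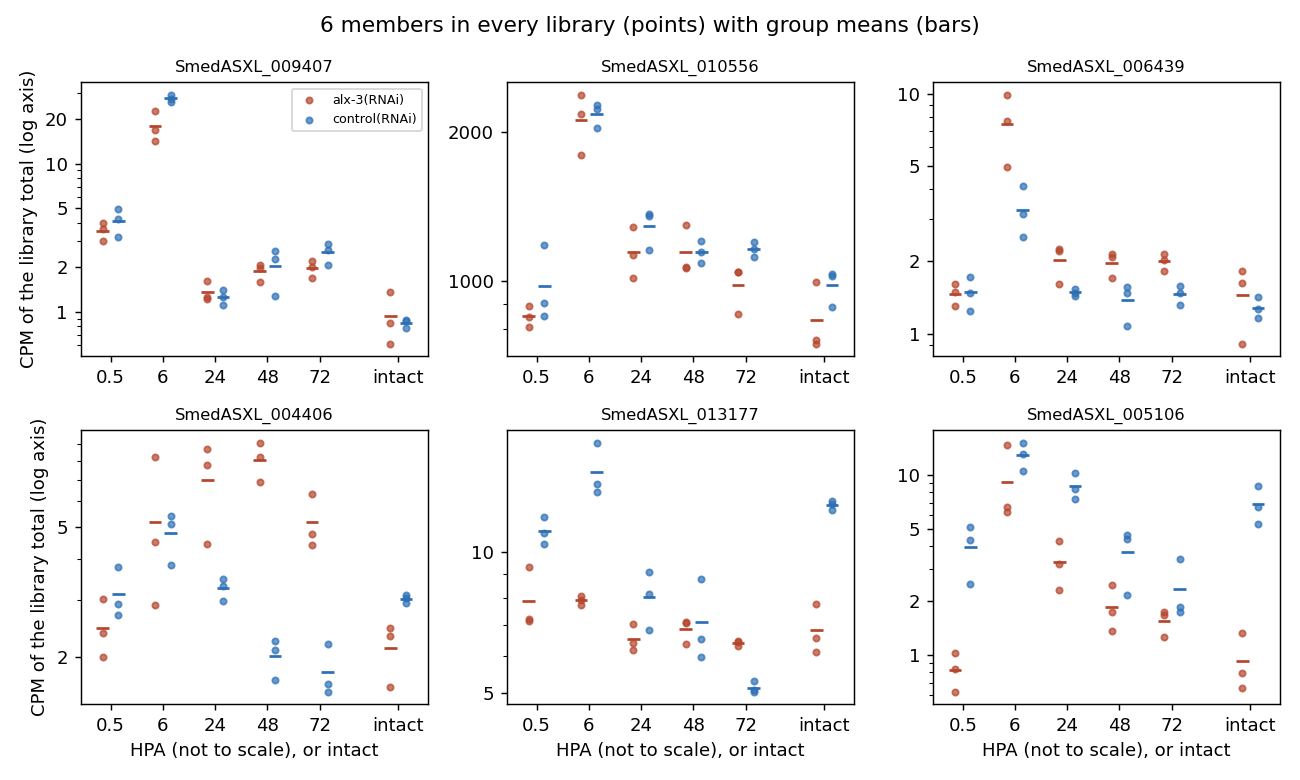
CPM of the library total (log axis) of 6 members in every library, by HPA and in intact worms, with *alx-3(RNAi)* left of *control(RNAi)* at each time. Points are libraries and bars are means of 3. SmedASXL_009407, SmedASXL_010556 and SmedASXL_006439 peaked at 6 HPA in both groups, SmedASXL_004406 was highest at 48 HPA in *alx-3(RNAi)*, SmedASXL_013177 averaged 7.89 CPM at 6 HPA and 7.87 CPM at 0.5 HPA in *alx-3(RNAi)* tails, and SmedASXL_005106 was highest at 6 HPA in both groups.

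The effect of *alx-3(RNAi)* was tested within each time point on log2(normalized count + 1) with limma. Every transcript that reached a normalized count of 10 in 3 or more of the 6 libraries entered the test, and calls were made where the p adjusted over all of them (Benjamini-Hochberg) was under 0.05. All 150 members were tested at each time. In the tail fragments the control libraries of this test are those that chose the members, high at 6 HPA and low at the other times, which pushes member differences down at 6 HPA and up elsewhere, so the tail counts are given as a description.

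Of the 150 members, 2 were called higher and 8 lower at 6 HPA in *alx-3(RNAi)* tails, against 1.72% (higher) and 0.621% (lower) of all 32840 transcripts tested. The members' median log2 fold change was −0.17, against 0.01 over all transcripts. The 2 that rose were SmedASXL_006439 (1.31, SE 0.23, adjusted p = 0.014) and SmedASXL_004098 (0.84, SE 0.15, adjusted p = 0.014). SmedASXL_004098 had 29.0, 22.2 and 26.5 CPM in *alx-3(RNAi)* tails, against 20.8, 13.0 and 14.6 CPM in *control(RNAi)* tails. Both had all 3 *alx-3(RNAi)* libraries above the controls. Both calls were lost where library totals were made equal (adjusted p = 0.0507 for SmedASXL_006439 and 0.0669 for SmedASXL_004098), without *alx-3(RNAi)* replicate 1 (0.0564 and 0.0722) and without *control(RNAi)* replicate 3 (0.0582 and 0.0679), and that of SmedASXL_004098 also with quantile normalization (0.0649).

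The 8 members called lower at 6 HPA had log2 fold changes of −0.77 to −0.33, and in each the 3 *alx-3(RNAi)* libraries lay under the 3 controls in normalized counts. SmedASXL_013177 fell the most, with 7.91, 8.04 and 7.72 CPM in *alx-3(RNAi)* tails, against 13.5, 14.0 and 17.2 CPM in *control(RNAi)* tails (log2 fold change −0.77, SE 0.12, adjusted p = 0.00566). Its lead was 0.015 in *alx-3(RNAi)* tails, against 0.413 in *control(RNAi)* tails. SmedASXL_073818 had 2.07, 2.19 and 2.32 CPM in *alx-3(RNAi)* tails, against 3.25, 3.80 and 4.24 CPM in *control(RNAi)* tails (log2 fold change −0.63, SE 0.15, adjusted p = 0.0486), with leads of 0.013 and 0.515. These levels at 6 HPA in *alx-3(RNAi)* stood close to their own 0.5 HPA means of 7.87 ± 1.22 and 2.18 ± 0.211 CPM. The call of SmedASXL_013177 held under all 13 alternatives tried, and that of SmedASXL_073818 was lost under 6 of 13, namely quantile normalization and the omission of any 1 library but *control(RNAi)* replicate 1 (adjusted p from 0.0673 to 0.182). Of the 8, 3 still had all *alx-3(RNAi)* values at 6 HPA above the other *alx-3(RNAi)* tail values. The 10 calls at 6 HPA became 3, 18 and 3 without *alx-3(RNAi)* replicates 1, 2 and 3, and 6, 3 and 1 without *control(RNAi)* replicates 1, 2 and 3. Calls over all transcripts were not counted for these omissions.

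At the other tail times calls among the members were as follows. At 0.5 HPA 2 were higher and 6 lower, at 24 HPA 8 were higher and 11 lower, at 48 HPA 5 were higher and 1 lower, and at 72 HPA 24 were higher and 5 lower. The shares over all transcripts tested were 1.24% higher and 0.794% lower at 0.5 HPA, 4.28% higher and 3.01% lower at 24 HPA, 2.36% higher and 1.11% lower at 48 HPA, and 10.5% higher and 2.62% lower at 72 HPA. The median log2 fold change of the members was −0.10 at 0.5 HPA, 0.00 at 24 HPA, 0.09 at 48 HPA and 0.06 at 72 HPA. SmedASXL_004098 was called higher at all 5 tail times, with log2 fold changes of 0.57, 0.84, 1.17, 0.82 and 0.83 in time order. Over all 6 comparisons, 53 members (35.3%) were called at least once, against 20.4% of the 27959 transcripts tested at every time, with the tail controls that chose the members in 5 of the 6.

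Scaling moved these counts. Where library totals were made equal, the median log2 fold change of all transcripts was −0.13 at 6 HPA, −0.15 at 48 HPA and −0.20 at 72 HPA, against 0.01 in the deposited scaling. Calls among the members then became 1 higher and 28 lower at 0.5 HPA (0.947% and 3.69% of all transcripts), 0 higher and 22 lower at 6 HPA (0.563% and 1.25%), 7 higher and 18 lower at 24 HPA (3.18% and 6.92%), 4 higher and 7 lower at 48 HPA (1.87% and 5.83%), and 11 higher and 26 lower at 72 HPA (3.21% and 12%). The median of the members at 6 HPA was below that of all transcripts in both scalings (−0.31 against −0.13 with the same total), while at 48 HPA (0.09 and −0.07) and 72 HPA (0.06 and −0.15) its sign depended on the scaling. Quantile normalization gave 1 higher and 20 lower at 0.5 HPA (1.41% and 1.72% of all transcripts), 1 higher and 13 lower at 6 HPA (0.895% and 0.834%), and 18 higher and 16 lower at 72 HPA (5.46% and 5%).

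Some cell type markers and the share of ribosomal RNA also differed between the groups at 6 HPA, while other marker levels overlapped. The 5 epidermal progeny markers summed to 1189 to 1352 CPM in *alx-3(RNAi)* tails, against 1101 to 1122 CPM in *control(RNAi)* tails, with 2 of 5 called higher. The giant muscle protein gene *titin* had 4.70 to 11.3 CPM in *alx-3(RNAi)* tails, against 20.9 to 28.2 CPM in *control(RNAi)* tails. The 8 neoblast markers summed to 2441 to 2568 CPM in *alx-3(RNAi)* and 2321 to 2500 CPM in *control(RNAi)* tails. Of these 8, 1 was called higher. The 7 parenchyma and pigment markers summed to 4945 to 5638 CPM and 4350 to 4996 CPM, with 3 of 7 called higher. Both ranges overlapped between groups, as did that of the gut marker (64.6 to 77.0 CPM and 62.4 to 73.6 CPM). Most of the parenchyma and pigment sum was *cathepsin_L-1-2*, with means of 4035 and 3534 CPM. The CPM means of *FoxF1*, *Cathepsin-L-1-1* and *ets-1* were lower in *alx-3(RNAi)* tails, and those of the other parenchyma and pigment markers were higher. Ribosomal RNA averaged 12.8% ± 0.0706 in *alx-3(RNAi)* and 12.2% ± 0.351 in *control(RNAi)* libraries (SD, n = 3 each). At 72 HPA, the time with the largest count of member calls, the epidermal progeny markers (5 of 5 called higher) summed to 1128 to 1149 CPM in *alx-3(RNAi)* and 1042 to 1100 CPM in *control(RNAi)* tails, and the parenchyma and pigment markers (6 of 7 called higher) to 5322 to 5473 CPM and 4905 to 4999 CPM. The neoblast markers (1 of 8 called higher and 1 lower) summed to 3341 to 3619 CPM in *alx-3(RNAi)* and 4132 to 4361 CPM in *control(RNAi)* tails. Marker calls used the deposited scaling while the sums used CPM, and marker calls were not rerun with equal library totals. The 2 scales can differ in direction. At 72 HPA the CPM means of *Cathepsin-L-1-1* (617 against 623) and *ets-1* (87.7 against 88.6) were slightly lower in *alx-3(RNAi)* than in *control(RNAi)* tails. The part of these marker and ribosomal RNA differences in the member results was not tested.

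Intact worms gave a comparison that the choice of members did not use. There, 11 of the 150 members (7.33%) were called lower and 1 (0.667%) higher in *alx-3(RNAi)*, against 0.501% lower and 0.384% higher of all 32541 transcripts tested. The log2 fold change was negative in 106 members (70.7%), against 48.3% of all transcripts, and its median was −0.19 in the members and 0.01 over all. The 11 members called lower had log2 fold changes of −3.08 to −0.37, and in each the 3 *alx-3(RNAi)* libraries lay under the 3 controls. SmedASXL_013177 was among them and had also been called lower at 6 HPA.

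**Figure D4:**
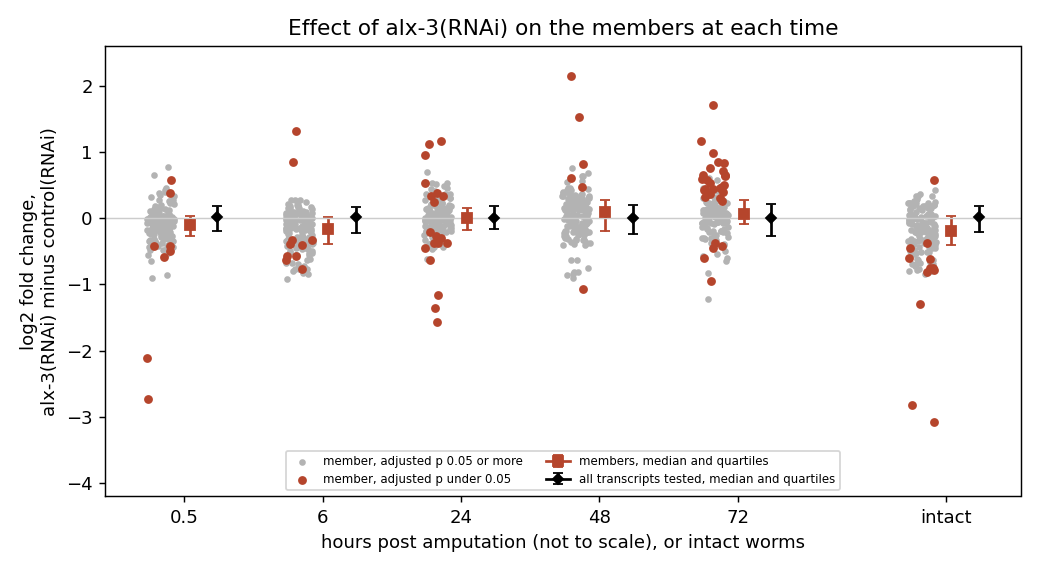
Log2 fold change (*alx-3(RNAi)* minus *control(RNAi)*, limma on normalized counts) of the 150 members at each time. Grey points are members with an adjusted p of 0.05 or more and red points those under it, red squares with bars are the median and quartiles of the members and black diamonds with bars those of all transcripts tested. The members' median lay at −0.17 at 6 HPA and −0.19 in intact worms and between −0.10 and 0.09 at the other times. The black diamonds lie near 0 throughout.

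SmedASXL_007309 and SmedASXL_005106 fell the most in intact worms. SmedASXL_007309 had 0.192, 0.511 and 0.201 CPM in *alx-3(RNAi)* worms, against 2.18, 3.35 and 2.31 CPM in *control(RNAi)* worms (log2 fold change −3.08, SE 0.34, adjusted p = 0.00167). SmedASXL_005106 had 0.793, 1.32 and 0.657 CPM in *alx-3(RNAi)* worms, against 5.32, 8.64 and 6.60 CPM in *control(RNAi)* worms (log2 fold change −2.82, SE 0.25, adjusted p = 0.000381). In both the groups stood far apart, with *alx-3(RNAi)* replicate 2 nearest the controls, and both calls held under all 13 alternatives tried.

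The same transcripts were low at 0.5 HPA and on average nearer the controls at 6 HPA, most of all in *alx-3(RNAi)* replicate 2. SmedASXL_005106 had 0.831, 1.02 and 0.623 CPM at 0.5 HPA in *alx-3(RNAi)* tails, against 2.48, 4.34 and 5.11 CPM in *control(RNAi)* tails (log2 fold change −2.11, SE 0.27, adjusted p = 0.00151). At 6 HPA it had 6.21, 14.7 and 6.64 CPM in *alx-3(RNAi)* tails, against 13.0, 15.1 and 10.5 CPM in *control(RNAi)* tails, and the groups overlapped (log2 fold change −0.44, SE 0.24, adjusted p = 0.383). SmedASXL_007309 likewise had 0.228, 0.263 and 0.152 CPM at 0.5 HPA and 1.42, 5.34 and 2.27 CPM at 6 HPA in *alx-3(RNAi)* tails, against 1.05, 1.77 and 2.17 CPM and 5.08, 5.36 and 4.18 CPM in *control(RNAi)* tails. For SmedASXL_007309 the log2 fold change at 6 HPA was −0.76 (limma, SE 0.33, adjusted p = 0.255). In both transcripts *alx-3(RNAi)* replicates 1 and 3 lay under all 3 controls at 6 HPA, and replicate 2 did not lie under them. Averaged over the 3 libraries, both had a larger lead in *alx-3(RNAi)* than in *control(RNAi)* tails. The leads were 1.39 against 0.56 for SmedASXL_005106 and 1.23 against 0.53 for SmedASXL_007309. At 24 HPA both were again called lower, SmedASXL_005106 by −1.35 (SE 0.20, adjusted p = 0.00252) and SmedASXL_007309 by −1.56 (SE 0.19, adjusted p = 0.000994) on the log2 scale.

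The member called higher in intact worms was SmedASXL_016037, with 246.6, 222.1 and 248.0 CPM in *alx-3(RNAi)* worms, against 175.0, 183.3 and 152.8 CPM in *control(RNAi)* worms (log2 fold change 0.58, SE 0.11, adjusted p = 0.0414). At 6 HPA it overlapped between groups, with 332, 407 and 334 CPM in *alx-3(RNAi)* and 368, 410.2 and 339 CPM in *control(RNAi)* tails. Its call was lost under 6 of 13 alternatives, with an adjusted p of 0.054 for a mean normalized count of 50 or more and from 0.0806 to 0.224 when any 1 library but *alx-3(RNAi)* replicate 2 was left out.

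The count of members called in intact worms depended on single libraries. It was 12 with all 6 libraries, 44 without *alx-3(RNAi)* replicate 2, 4 without *alx-3(RNAi)* replicate 1, 5 without *alx-3(RNAi)* replicate 3, and 4, 4 and 5 without *control(RNAi)* replicates 1, 2 and 3. Calls over all transcripts were not counted for these omissions, so it is not known whether the changes are particular to the members. At an unadjusted p under 0.05 there were 60 of the 150 members with all 6 libraries, 50 of them lower, against 5808 of all 32541 transcripts tested. Beside this, the neural marker *COE* had 8.77 to 14.1 CPM in *alx-3(RNAi)* worms, against 14.7 to 17.5 CPM in *control(RNAi)* worms, the gut marker had 34.8 to 63.3 CPM, against 62.5 to 67.1 CPM, and the 5 epidermal progeny markers summed to 819 to 861 CPM, against 710 to 762 CPM. Their part in the intact result was not tested.

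Genes with a name in their ID stand outside the choice, since their IDs do not start with SmedASXL_, and 9 of them from a list of wound-response genes were set beside the members. In *control(RNAi)* tails 5 of the 9 had all 3 values at 6 HPA above the other tail values, as did 5 of the 9 in *alx-3(RNAi)* tails, with 4 in both. *runx-1*, a transcription factor gene induced by wounds, had 6.46, 9.40 and 6.17 CPM at 6 HPA in *alx-3(RNAi)* tails, against 22.3, 24.8 and 23.3 CPM in *control(RNAi)* tails, with leads of 0.93 and 2.34. Its control lead was thus above that of every member but SmedASXL_009407, and its fall was larger than that of any member called lower at 6 HPA (log2 fold change −1.56, SE 0.13, adjusted p = 7.85e-05). *delta-1*, which encodes a Notch ligand, had 8.30, 4.77 and 3.90 CPM at 6 HPA in *alx-3(RNAi)* tails, against 2.86, 1.48 and 2.72 CPM in *control(RNAi)* tails, with leads of 1.68 and 1.22. It was called higher (log2 fold change 1.38, SE 0.29, adjusted p = 0.0291). *wnt1*, which encodes a Wnt ligand expressed at wounds, had leads of 1.03 in *alx-3(RNAi)* and 1.29 in *control(RNAi)* tails. Its means at 6 HPA were 2.11 ± 1.06 CPM in *alx-3(RNAi)* and 4.23 ± 0.626 CPM in *control(RNAi)* tails. *follistatin*, which encodes an inhibitor of activin, had leads of 0.31 and 0.50. Of the 9 genes, *runx-1* was the 1 called lower and *delta-1* the 1 called higher at 6 HPA, and in intact worms 1 was called lower (*runx-2*) and 0 higher. At the other tail times 1 was higher and 0 lower at 0.5 HPA, 3 were higher and 2 lower at 24 HPA, 3 higher and 0 lower at 48 HPA, and 4 higher and 2 lower at 72 HPA. *runx-2* stood apart at 6 HPA in *control(RNAi)* tails and not in *alx-3(RNAi)* tails, with leads of −0.52 in *alx-3(RNAi)* and 0.35 in *control(RNAi)*. *notum* stood apart in *alx-3(RNAi)* tails and not in *control(RNAi)* tails, with leads of 0.75 and −0.22. Its mean at 6 HPA was nonetheless lower in *alx-3(RNAi)* tails, at 3.23 ± 0.324 CPM, against 4.84 ± 0.675 CPM in *control(RNAi)* tails. The negative control lead came from 72 HPA, where *notum* averaged 1.88 ± 0.198 CPM in *alx-3(RNAi)* and 5.93 ± 2.29 CPM in *control(RNAi)* tails. *activin*, *FoxD1* and *wntP-2* stood apart in neither group.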

How the data were processed

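RNA-seq was analysed from 36 libraries. Per the methods of the study, the authors trimmed 50 bp read pairs with Trimmomatic, quantified them with Salmon against the Smed_ASXL transcriptome and ran DESeq2. The submitters' processing notes name Trimmomatic 0.39, Salmon 1.4.0 and DESeq2 1.30.1. The signal the authors deposited is a normalized count per transcript, scaled separately at each time point and named RPKM in the headers, although low values in a library shared 1 step whatever the transcript. The deposited results tables of the authors (mean, log2 fold change, SE, statistic, p-value and adjusted p) were not used. Steps did not give whole reads for nearly all values, so no count model was run.

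Groups were compared within each table in limma 3.58.1 (R 4.3.3) on log2(normalized count + 1), with two-sided tests from lmFit and eBayes (trended prior). Levels across times were scaled to CPM of the library total (pandas 2.3.3) and were not tested, since the tables were normalized separately. The limma step was tested on simulated data with known changes. These were larger than any member effect at 6 HPA, so the check does not show how well smaller effects are found. Library totals of 50.9 to 70.9 M are sums of normalized counts and not numbers of reads. Members with low counts were measured with less precision. Members, lists and tests were chosen with earlier results of these data known.

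Named members were the 2 with the largest control lead, the 2 with the highest control level, the last 2 inside and first 2 outside the choice, the 2 largest and 2 smallest leads in *alx-3(RNAi)*, and up to 2 rises and 2 falls at 6 HPA and in intact worms among members called with the groups apart. Alternatives were the pseudocount, the filters, the scaling, the size of the choice, a replicate block and each library left out.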

Additional observations from a re-analysis of the deposited data

Results flagged for a closer look

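In 4 named members all 3 *alx-3(RNAi)* libraries lay above the controls at 1 time and below them at another, in the deposited normalized counts. The differences between times were not tested, and the tail controls are libraries that chose the members. SmedASXL_004406 had log2 fold changes of 2.15 at 48 HPA and −0.44 in intact worms, a difference of 2.58. SmedASXL_013177 had 0.53 at 72 HPA and −0.81 in intact worms, a difference of 1.34. SmedASXL_073818 had 0.36 at 24 HPA and −0.63 at 6 HPA, a difference of 0.99. SmedASXL_008766 had 0.23 at 72 HPA and −0.69 in intact worms, a difference of 0.93. In CPM, SmedASXL_008766 at 72 HPA and SmedASXL_073818 at 24 HPA overlapped between the groups. Groups of 3 libraries are too small for a test of single deviating libraries, and none was made.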

How the results depend on the processing

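The 7 calls of named members at 6 HPA and in intact worms and that of *alx-3* at 6 HPA kept their direction under each alternative, and the other named values were not rerun. The choice of members held 99 of its 150 with a mean count of at least 200, and 103 to 116 when a control library at 6 HPA was left out. The median lead in *alx-3(RNAi)* tails was 0.41, 0.33 with a pseudocount of 1, 0.65 for the top 50 (40 of them with all *alx-3(RNAi)* values apart) and 0.15 for all 635 that passed (270 apart), and 0.38 to 0.45 with an *alx-3(RNAi)* library left out (97 to 103 apart). The members called numbered 8, 10, 6 and 12 at 0.5, 6 and 48 HPA and in intact worms, against 29, 22, 11 and 22 with the same total per library, and 21 and 10 at 0.5 and 48 HPA with quantile normalization. With the same total, 0.403% of all transcripts were called higher and 1.04% lower in intact worms. With quantile normalization, 3.61% of all transcripts were called higher and 2.11% lower at 48 HPA. Leaving out 1 library gave 3 (without *alx-3(RNAi)* replicate 3) to 28 (*control(RNAi)* replicate 1) members at 0.5 HPA, 1 to 18 at 6 HPA, 6 (*control(RNAi)* replicate 2) to 19 at 24 HPA, 1 (*alx-3(RNAi)* replicate 1) to 12 (*control(RNAi)* replicate 3) at 48 HPA, 13 (*alx-3(RNAi)* replicate 1) to 39 at 72 HPA and 4 to 44 in intact worms, and a log2 fold change of −1.44 to −1.27 for *alx-3* at 6 HPA. Same-numbered libraries did not deviate together at any time by the rule that each of the 3 pairs correlate over 0.1, so the numbers were not taken as pairs. With the replicate block 14 members were called at 0.5 HPA and 19 at 6 HPA, and the other counts stayed within 1.5 times. Calls over all transcripts were not counted for the left-out libraries or for the replicate block. A count model with its own scaling, although planned, could not be fitted to values that are not whole reads.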
